A study of Mus musculus with 3 samples.

Results

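The genes described here are 39 members of the unfolded protein response and the integrated stress response, read from RNA sequencing of mouse midbrain at postnatal day 3. They were taken by symbol from the 49585 genes of the deposited tables, 1 row for each symbol, and all 39 had enough reads to be among the 25561 genes tested. The study compared 1 wild-type library (WT) with 2 libraries whose genotype is given as FGR. All 3 came from C57BL/6 mice of the same age, and total RNA was taken from frozen tissue. The labels do not spell FGR out, and they give no sex, litter or method by which the FGR state was produced. They also leave unstated which animal or pool each library came from. Counts of the Y-linked gene Eif2s3y, named after its values were seen, were 0, 3 and 2003 in WT and FGR replicates 1 and 2, so the FGR libraries are not repeats of 1 RNA sample and differ in Y-linked RNA. The part of that difference in the results was not tested, and this FGR pair is the only replicate spread behind the p-values.

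When proteins fold poorly in the endoplasmic reticulum (ER), 3 kinds of sensor in its membrane respond: the kinase and RNase IRE1, the kinase PERK and the transcription factor precursor ATF6. IRE1 splices Xbp1 mRNA, and the resulting factor, together with cleaved ATF6, raises ER chaperones and the genes that send misfolded proteins for degradation. PERK belongs to a set of kinases that phosphorylate the translation factor eIF2, which slows protein synthesis while favouring translation of ATF4. ATF4 in turn drives genes of amino acid supply, redox defence and, under lasting stress, cell death. In developing brain this machinery serves neurons and glia that make much membrane and secreted protein. Read counts per gene measure mRNA levels only and do not show Xbp1 splicing, eIF2 phosphorylation or ATF4 translation.

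In FGR midbrain 6 of the 39 members fell and 0 rose. They were the ER chaperone gene Calr (ENSMUSG00000003814.8), the protein disulphide isomerase genes Pdia3 (ENSMUSG00000027248.13), Pdia4 (ENSMUSG00000025823.9) and Pdia6 (ENSMUSG00000020571.12), the transcription factor gene Xbp1 (ENSMUSG00000020484.18) and the cystine transporter gene Slc7a11 (ENSMUSG00000027737.10). The falls ranged from 17.5% for Pdia6 to 34.2% for Calr. The kinases that sense stress, eIF2 and its phosphatase subunits, Atf4, Ddit3 and 12 of the 13 ATF4 targets were not called. A call is an adjusted p under 0.05 in edgeR's quasi-likelihood test, fitted over all genes and adjusted by Benjamini and Hochberg. Over all genes tested, 4.25% were called and 2.59% were called lower. Among genes at a mean of at least 10 CPM (counts scaled to library size with edgeR's TMM factors), 3.72% were called lower, beside 6 of the 32 members at that level. The median log2 fold change of the 39 members was -0.08, and that of all genes tested was 0.01. In this bulk RNA, fewer cells of a type and less RNA per cell cannot be told apart.

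**Figure D1:**
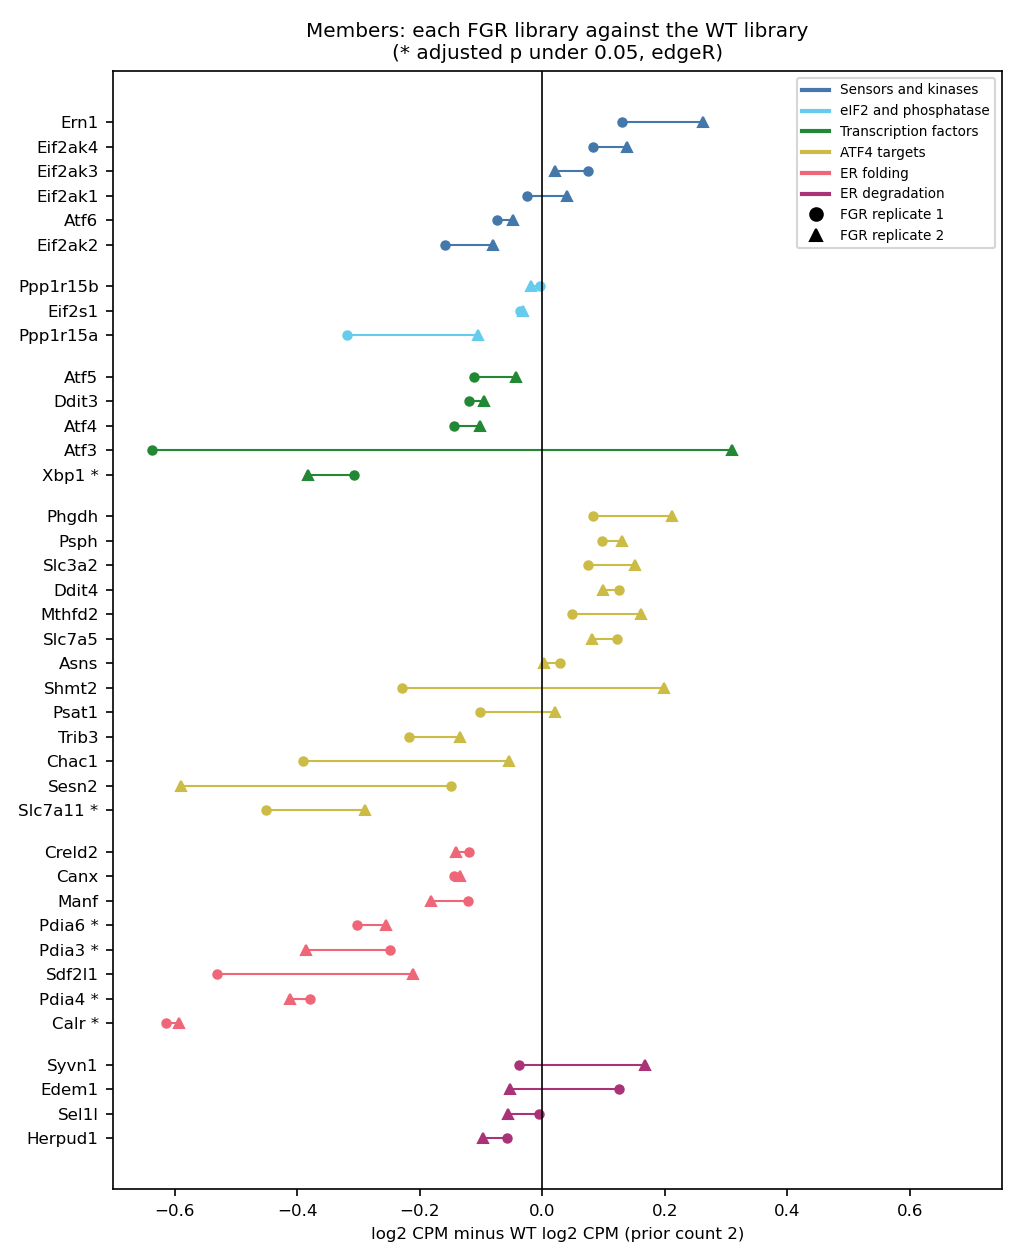
For each of the 39 members, grouped by role, the log2 CPM of FGR replicate 1 (circles) and FGR replicate 2 (triangles) minus that of the WT library, with a prior count of 2. The 8 ER folding genes lie left of 0 in both FGR libraries, while 7 of the 13 ATF4 targets lie right of it in both. Over all genes tested, 38.2% were below WT in both and 38.5% above it in both.

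The libraries held 52874311 counts for WT, 58444481 for FGR replicate 1 and 46240262 for FGR replicate 2. The fit had 1 residual degree of freedom, from the FGR pair. edgeR drew the spread of each gene toward that of all genes, with a median of 13.02 prior degrees of freedom. Each SE therefore rests mostly on spread pooled over genes. WT, with 1 library, was given that same spread, and any peculiarity of that library cannot be told apart from the group. Of all 1087 calls 39% were higher in FGR. With libraries scaled by their total counts, 24.4% of 1367 calls were. Of 9 midbrain markers, all were detected in every library, 4 rose (En1, En2, Tfap2b and Tfap2d) and 3 fell (Foxa1, Lmx1a and Slc6a3). Of 10 hypothalamic and ventral forebrain markers 9 fell, from a summed 52.7 CPM to 3.62 and 3.91 CPM, with Nkx2-4 and Oxt at 0 in both FGR libraries and Dlx5 at 0 in FGR replicate 1. Of the meningeal markers 7 of 8 fell. The summed level of those 8 was 911 CPM in WT against 357 and 581 CPM in FGR. Falls were also called for 5 of 9 astrocyte markers, 4 of 8 microglial and macrophage markers, 4 of 7 endothelial markers and 3 of 8 markers of the oligodendrocyte lineage. Of 4 erythroid markers 3 rose, and of 7 choroid plexus markers Otx2 alone was called, higher in FGR, a gene that midbrain also expresses. Of those 7 markers 5 were lower in both FGR libraries. Ttr, at 36, 73 and 194 counts in WT and FGR replicates 1 and 2, was higher without a call (edgeR adjusted p = 0.0560). None of 8 neuronal markers was called, although 4 of them had an unadjusted p under 0.05, 1 higher and 3 lower.

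The 8 ER folding members were all lower in both FGR libraries. Of these, 4 fell and 4 were not called, and the median log2 fold change of the 8 was -0.30. Over all genes tested, 38.2% were lower in both FGR libraries and 38.5% were higher in both. The summed level of the 8 genes was 1155 CPM in WT against 912 and 915 CPM in FGR, and Calr made up 59.8% of the difference between WT and the FGR mean. Each of the 8 kept a negative fold change under all scalings and filters tried.

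Calr encodes calreticulin, a calcium-binding chaperone of the ER lumen that holds newly made glycoproteins until they fold. It was at 421 CPM in WT against 275 and 279 CPM in FGR replicates 1 and 2. The FGR libraries differed from each other by little beside their distance from WT. The mean of FGR was 277 ± 2.78 CPM (SD, n = 2), or 1.52-fold lower than WT. On the log2 scale the change was -0.60 ± 0.09 (SE), with an edgeR adjusted p of 0.00136. The call held in DESeq2 (adjusted p = 9.41e-10) and in each other alternative that gave a test (adjusted p from 6.00e-11 to 0.0264). Per length, Calr was the most abundant member in WT, at 149 RPKM (reads scaled by gene length and library size), followed by Canx at 88.0 RPKM. Its processed pseudogene Calr-ps had 16, 20 and 17 counts in the 3 libraries.

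Canx encodes calnexin, the membrane-bound partner of calreticulin in the same folding cycle. It was at 406 CPM in WT against 367 and 369.8 CPM in FGR, and its log2 fold change was -0.14 ± 0.09, which was not called (edgeR adjusted p = 0.461). Per length, Calr was at 149 RPKM in WT against 94.9 and 95.9 RPKM in FGR, and Canx was at 88.0 RPKM against 77.7 and 77.9 RPKM, so Calr stayed the higher of the pair in each library. The difference between their fold changes was not tested.

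The protein disulphide isomerases form and rearrange disulphide bonds in new proteins, and PDIA3 works with calreticulin and calnexin on glycoproteins. Pdia4 was at 74.2 CPM in WT against 57.1 and 55.8 CPM in FGR, and its log2 fold change was -0.40 ± 0.06 (edgeR adjusted p = 0.00308). Pdia6 was at 134 CPM in WT against 109 and 113 CPM in FGR, and its log2 fold change was -0.28 ± 0.07 (edgeR adjusted p = 0.0336). Pdia3 was at 62.5 CPM in WT against 52.6 and 47.8 CPM in FGR, and its log2 fold change was -0.31 ± 0.07 (edgeR adjusted p = 0.0263). For each of the 3 genes both FGR libraries lay below WT by more than they lay apart. DESeq2 called Pdia4 (adjusted p = 0.0438) but neither Pdia3 nor Pdia6 (adjusted p = 0.348 and 0.185), and with genes limited to a mean of at least 1 CPM edgeR lost the same pair (adjusted p = 0.0850 and 0.0704). Over the alternatives the lowest adjusted p was 6.40e-06 for Pdia4, 9.94e-04 for Pdia3 and 0.00167 for Pdia6.

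The remaining folding genes were not called. Creld2, an ER protein with disulphide isomerase activity, was at 11.1 CPM in WT against 10.3 and 10.1 CPM in FGR. Manf, an ER-resident protein that is also secreted and protects dopamine neurons, was at 41.7 CPM in WT against 38.3 and 36.8 CPM in FGR (edgeR adjusted p = 0.346). Sdf2l1, part of a chaperone complex of the ER, was the least abundant of the 8 per length, at 3.45 RPKM in WT. It was at 3.75 CPM in WT against 2.59 and 3.24 CPM in FGR, and its log2 fold change was -0.37 ± 0.21. That estimate was close in size to that of Pdia4, with a wider SE (0.06 for Pdia4).

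**Figure D2:**
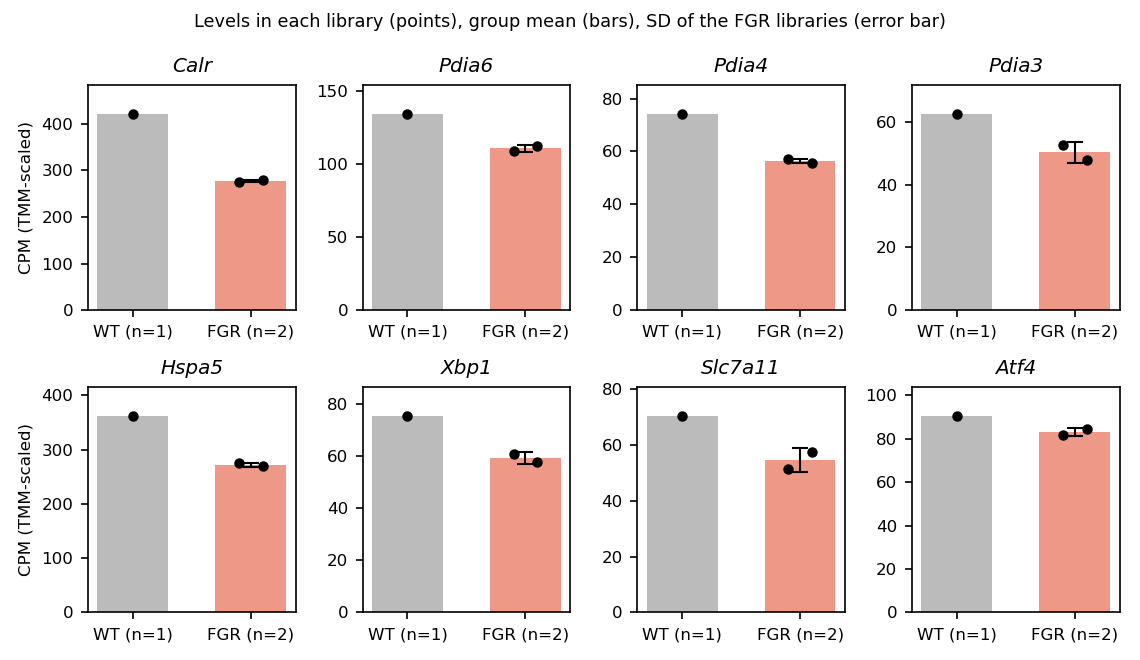
TMM-scaled CPM in each library (points), with bars for the WT value and the FGR mean and an error bar for the SD of the 2 FGR libraries; all axes start at 0. Calr to Slc7a11, in 7 of the 8 panels, fell by edgeR's test, and Atf4 was not called (90.4 CPM in WT, 81.8 and 84.3 CPM in FGR).

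Many ER chaperone promoters carry the ER stress response element (ERSE), which ATF6 and the factor NF-Y bind, and its consensus was first drawn from such genes. RefSeq promoters, 250 bases before to 50 after a start site on GRCm38.p6, were found for 35 of the 39 members, while Atf6, Slc7a5, Ppp1r15b and Manf were not in the table. The ERSE letters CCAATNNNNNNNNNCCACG, sought on both strands, stood in the promoters of 5 of 11 ER folding and degradation genes (45.5%) and of 0.137% of 27025 genes in the table. They are shown for these 5 genes and for Hspa5, 5′ to 3′ along the gene's strand, with 20 bases on either side and the match in capitals.
Calr: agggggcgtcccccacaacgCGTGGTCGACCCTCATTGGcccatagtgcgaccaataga
Pdia6: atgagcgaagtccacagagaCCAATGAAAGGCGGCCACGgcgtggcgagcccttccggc
Canx: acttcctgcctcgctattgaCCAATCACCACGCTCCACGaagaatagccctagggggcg
Creld2: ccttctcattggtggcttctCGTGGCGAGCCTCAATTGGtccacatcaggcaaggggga
Syvn1: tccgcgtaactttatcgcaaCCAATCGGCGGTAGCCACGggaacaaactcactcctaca
Hspa5: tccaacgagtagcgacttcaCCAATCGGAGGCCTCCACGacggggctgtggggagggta

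These stretches lie at chr8:84847055-84847113 (minus strand) for Calr, chr12:17266471-17266529 (plus) for Pdia6, chr11:50325780-50325838 (minus) for Canx, chr15:88819500-88819558 (plus) for Creld2, chr19:6046512-6046570 (plus) for Syvn1 and chr2:34772005-34772063 (plus) for Hspa5. The matches began between 162 bases (Calr) and 44 bases (Syvn1) before the start site. Those of Calr and Creld2 were on the opposite strand. Of the 5 members with these letters, Calr and Pdia6 fell, while Canx, Creld2 and Syvn1 were not called. Pdia3 and Pdia4, which also fell, did not have these letters in the window searched. The ER gene Hsp90b1, outside the members and not called, held them at 212 and 107 bases before the start site and is not shown. A match is a description of the sequence, and factor binding was not measured.

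The 4 members of ER-associated degradation were not called. This pathway recognises misfolded proteins, moves them back to the cytosol and marks them with ubiquitin. Of its 4 members 0 were called at an adjusted p under 0.05 by edgeR or by DESeq2, and 0 had an unadjusted edgeR p under 0.05. Their median log2 fold change was 0.01. Sel1l and Syvn1, the scaffold and the ubiquitin ligase of the main degradation complex, were at 170.0 and 18.2 CPM in WT, with Sel1l at 169 and 164 CPM and Syvn1 at 17.7 and 20.4 CPM in FGR. Edem1, a lectin-like protein that hands glycoproteins over for degradation, was at 16.9 CPM in WT against 18.5 and 16.3 CPM in FGR. Herpud1, a membrane protein that organises the complex, was at 33.0 CPM in WT against 31.7 and 30.8 CPM in FGR. For Syvn1 and Edem1 the FGR libraries lay on either side of WT.

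Herpud1 was the 1 member whose promoter held ERSE-II (ATTGGNCCACG), a shorter form of the element that 0.0444% of genes in the table carried. The stretch shown lies at chr8:94386357-94386407 on the plus strand. The same promoter also held an ATF4-type element, TTGCATCA, 112 bases before the start, which lies outside the stretch shown.
Herpud1: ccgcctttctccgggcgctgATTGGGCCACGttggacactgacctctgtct

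Among the sensors, 0 of 6 were called by edgeR or by DESeq2 and 0 had an unadjusted edgeR p under 0.05. Their fold changes lay between -0.12 and 0.20 on the log2 scale. Ern1, which encodes IRE1, was at 14.6 CPM in WT against 16.0 and 17.5 CPM in FGR, the highest log2 fold change of any member at 0.20 ± 0.13 (edgeR adjusted p = 0.470). Atf6 was at 35.02 CPM in WT against 33.3 and 33.9 CPM in FGR. Eif2ak3, which encodes PERK, was at 24.3 CPM in WT against 25.6 and 24.7 CPM in FGR. The other eIF2 kinases answer to other stresses. Eif2ak4 encodes GCN2, which senses uncharged tRNA, and was at 26.1 CPM in WT against 27.7 and 28.8 CPM in FGR. Eif2ak1 encodes the haem-regulated kinase HRI and was at 41.6 CPM in WT against 40.9 and 42.8 CPM in FGR. Eif2ak2 encodes PKR, which double-stranded RNA activates, and was at 9.97 CPM in WT against 8.93 and 9.43 CPM in FGR. FGR values of Eif2ak1 lay on either side of WT. Those of Ern1, Eif2ak3 and Eif2ak4 were both above it and those of Atf6 and Eif2ak2 both below, without a call.

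The 3 genes of eIF2 and its phosphatase were below WT in both FGR libraries, and 0 were called by edgeR or DESeq2 or had an unadjusted edgeR p under 0.05. Eif2s1, the subunit of eIF2 that is phosphorylated, was at 57.2 CPM in WT against 55.8 and 56.0 CPM in FGR, and its log2 fold change was -0.03 ± 0.07. Ppp1r15b, the constitutive regulatory subunit that directs phosphatase to eIF2, was at 67.0 CPM in WT against 66.8 and 66.1 CPM in FGR. Ppp1r15a, the stress-induced subunit also known as GADD34, was at 12.9 CPM in WT against 10.4 and 12.03 CPM in FGR, and its log2 fold change was -0.21 ± 0.14 (edgeR adjusted p = 0.484).

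Of 5 transcription factor genes Xbp1 was the 1 that fell. Xbp1 was at 75.4 CPM in WT against 60.9 and 57.8 CPM in the FGR libraries, a mean of 59.4 ± 2.18 CPM (SD, n = 2). On the log2 scale the change was -0.34 ± 0.06 (SE), with an edgeR adjusted p of 0.00826, or 1.27-fold lower. DESeq2 gave the same direction without a call (adjusted p = 0.134), and over the 7 alternatives with a test the adjusted p ran from 1.30e-04 to that value. Atf4, the central factor of the integrated stress response, was the third most abundant member per length at 53.4 RPKM in WT. It was at 90.4 CPM in WT against 81.8 and 84.3 CPM in FGR, and its log2 fold change was -0.12 ± 0.06 (edgeR adjusted p = 0.339).

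Factors downstream of ATF4 were under 10 CPM in all libraries. Ddit3 encodes CHOP, which promotes cell death under lasting ER stress, and was at 9.30 CPM in WT against 8.57 and 8.70 CPM in FGR (edgeR adjusted p = 0.755). Atf5 was at 7.91 CPM in WT against 7.32 and 7.68 CPM in FGR. Atf3, an early stress-induced factor, was the least abundant member per length at 0.263 RPKM in WT. It had 30, 20 and 32 counts in WT and FGR replicates 1 and 2, with the FGR libraries on either side of WT. The SE of its log2 fold change was 0.52, and a change of that size was not detectable at this depth.

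The ATF4 targets lay on both sides of WT. Of 13 genes, 7 were higher in both FGR libraries, 4 were lower in both and 2 lay on either side. Over all genes tested, 38.5% were higher in both, 38.2% were lower in both and 4.25% were called. The single call among the 13 was the fall of Slc7a11, and their median log2 fold change was 0.02. That median was -0.02 with libraries scaled by total counts.

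Slc7a11 encodes xCT, the subunit that exchanges cystine for glutamate and so supplies cysteine for glutathione. It was at 70.4 CPM in WT against 51.5 and 57.6 CPM in the FGR libraries, both below WT, with a mean of 54.6 ± 4.32 CPM (SD, n = 2). On the log2 scale the change was -0.37 ± 0.07 (SE), with an edgeR adjusted p of 0.0116. The call was absent in DESeq2 (adjusted p = 0.131) and with genes limited to a mean of at least 1 CPM (edgeR adjusted p = 0.0694), and its lowest adjusted p over the alternatives was 3.94e-05. Slc3a2 encodes the heavy chain that xCT shares with other transporters, and was at 59.0 CPM in WT against 62.1 and 65.5 CPM in FGR. Slc7a5, which pairs with the same heavy chain to import large neutral amino acids, was at 57.1 CPM in WT against 62.1 and 60.4 CPM in FGR. Neither of these partners was called (edgeR adjusted p = 0.404 and 0.457).

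The serine synthesis enzymes are abundant in radial glia and astrocytes. Phgdh, the first enzyme of the pathway, was at 61.1 CPM in WT against 64.7 and 70.8 CPM in FGR, and its log2 fold change was 0.15 ± 0.07 (edgeR adjusted p = 0.284). Psat1, the second, was at 65.1 CPM in WT against 60.7 and 66.02 CPM in FGR. Psph, the last, was at 27.7 CPM in WT against 29.6 and 30.3 CPM in FGR. The mitochondrial enzymes that pass serine carbon to folate, Shmt2 and Mthfd2, were at 14.6 and 16.6 CPM in WT. FGR values were 12.4 and 16.8 CPM for Shmt2, on either side of WT, and 17.1 and 18.5 CPM for Mthfd2. Asns, which makes asparagine, was at 58.6 CPM in WT against 59.8 and 58.8 CPM in FGR. None of these 6 enzyme genes was called.

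Trib3, Chac1 and Sesn2 were below WT in both FGR libraries without a call, and Ddit4 was above it in both, also without a call. Trib3, a pseudokinase that feeds back on ATF4, was at 1.71 CPM in WT against 1.46 and 1.55 CPM in FGR. Chac1, which breaks down glutathione, was at 6.72 CPM in WT against 5.12 and 6.47 CPM in FGR. Sesn2, which restrains mTORC1 when leucine is short, was at 14.3 CPM in WT against 12.9 and 9.49 CPM in FGR. Its log2 fold change of -0.35 ± 0.17 was as large as that of Xbp1 but came with a wider gap between the FGR libraries and was not called (edgeR adjusted p = 0.281). Ddit4, another inhibitor of mTORC1 that also answers to hypoxia and glucocorticoids, was at 23.5 CPM in WT against 25.6 and 25.2 CPM in FGR.

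ATF4 and its partners of the C/EBP family bind a composite element (CARE). The letters TGATGNAA, sought on both strands in the same promoters, stood in 4 of 12 ATF4 target genes in the table (33.3%) and in 4.51% of all genes there. They also stood in the promoters of Atf3 and Herpud1. The UPRE core TGACGTGG was in 0 of the 35 members and in 0.714% of all genes. No match in a member overlapped a match of another motif. Slc7a11 is shown because it fell and held the letters in both orientations, and Asns, Chac1 and Atf3 are shown as members with the same letters that were not called.
Slc7a11: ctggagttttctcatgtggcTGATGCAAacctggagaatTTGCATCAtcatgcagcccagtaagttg
Asns: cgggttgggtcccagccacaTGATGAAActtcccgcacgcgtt
Chac1: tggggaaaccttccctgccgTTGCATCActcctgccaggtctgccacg
Atf3: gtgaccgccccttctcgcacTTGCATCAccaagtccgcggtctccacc

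These stretches lie on GRCm38.p6 at chr3:50443633-50443699 (minus strand), chr6:7693210-7693252 (minus), chr2:119351029-119351076 (plus) and chr1:191183416-191183463 (minus), in the order shown. The remaining match, in Trib3, lay after the start site. As for the ERSE, a match is a description of the sequence, and factor binding was not measured.

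Other genes of the same pathways were read from a list of 85 genes, of which 83 were tested. Of these, 3 fell and 1 rose, a share near the 4.25% called over all genes tested, and the median log2 fold change was 0.01. The list of 43 other ER genes had 1 call. Hspa5, which encodes the master ER chaperone BiP, fell from 362 CPM in WT to 275 and 269.6 CPM in FGR, and its log2 fold change was -0.41 ± 0.08 (edgeR adjusted p = 0.0138). DESeq2 called it too (adjusted p = 4.11e-04), but edgeR did not with genes limited to a mean of at least 1 CPM (adjusted p = 0.0603). The lowest adjusted p of Hspa5 over the alternatives was 3.57e-05. Hsp90b1, the ER form of HSP90, was at 264 CPM in WT against 217 and 219 CPM in FGR (edgeR adjusted p = 0.0659). It was called in 3 of 7 alternatives, with a GC and length offset, with total counts and with no filter (edgeR adjusted p = 0.0220, 0.0362 and 0.0101). Dnajb9, a BiP cochaperone and a classical target of spliced XBP1, was at 11.6 CPM in WT against 13.3 and 13.2 CPM in FGR (edgeR adjusted p = 0.528). Its FGR values were above WT without a call, and its relation to the level of Xbp1 was not tested. Of the 43 other ER genes, 19 were lower in both FGR libraries, 14 were higher in both and 10 lay on either side. Over all genes tested, 38.2% were lower in both and 38.5% were higher in both.

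Among 30 tested genes of the wider ATF4 programme, 2 fell and 1 rose. The list holds tRNA synthetases, amino acid and folate enzymes, amino acid carriers, and regulators and other targets such as Cebpb, Nupr1 and Vldlr. Mars, the methionyl-tRNA synthetase gene, was at 48.4 CPM in WT against 38.4 and 40.4 CPM in FGR (edgeR adjusted p = 0.0435). Slc1a5, a glutamine transporter gene, was at 8.82 CPM in WT against 6.08 and 5.88 CPM in FGR (edgeR adjusted p = 0.0489). Aldh1l2, a mitochondrial folate enzyme, rose from 35.5 CPM to 44.5 and 44.2 CPM (edgeR adjusted p = 0.0331). DESeq2 called none of these 3 (adjusted p = 0.470, 0.620 and 0.404), and they were also lost with genes limited to a mean of at least 1 CPM (edgeR adjusted p = 0.0917, 0.0915 and 0.0810). With an offset for GC content and length edgeR lost Mars and Slc1a5 (adjusted p = 0.0635 and 0.0689). Of 11 genes of eIF2, its exchange factor eIF2B and their regulators, 0 were called by edgeR or by DESeq2 and 0 had an unadjusted edgeR p under 0.05.

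**Figure D3:**
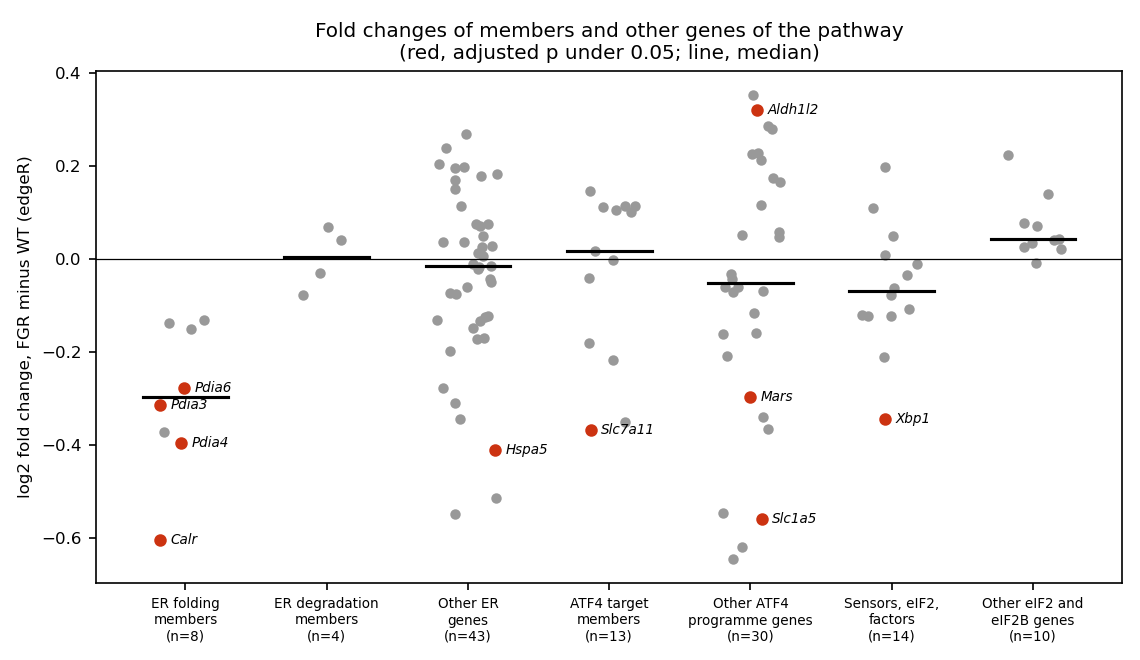
Log2 fold change of FGR against WT (edgeR) for each tested member and each other gene of the pathways, in 7 groups; red points are called at an adjusted p under 0.05 and black lines are medians, and Dnajc3, which is on 2 lists, is drawn once, with the other ER genes. ER folding members have the lowest median, -0.30, and Calr the lowest value among them, -0.60.

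Marker sums of several cell types were also lower in FGR, but not all. The erythroid sum was 171 CPM in WT against 245 and 268 CPM in FGR. The choroid plexus sum was 44.2 CPM against 53.6 and 56.1 CPM, and the midbrain sum 236 CPM against 283 and 251 CPM. The summed level of 9 astrocyte markers was 1638 CPM in WT against 1274 and 1385 CPM in FGR, that of 8 microglial and macrophage markers 136 CPM and then 83.0 and 97.5 CPM, and that of 7 endothelial markers 174 CPM and then 132 and 134 CPM. Meningeal markers summed to 911 CPM in WT against 357 and 581 CPM in FGR replicates 1 and 2. Markers of the oligodendrocyte lineage summed to 447 CPM in WT against 359 and 376 CPM in FGR. Slc7a11 was lower in FGR replicate 1 than in FGR replicate 2, as were the sums of all marker lists except the neuronal and midbrain ones. Hypothalamic and ventral forebrain markers summed to 52.7 CPM in WT against 3.62 and 3.91 CPM in FGR. A difference in the region dissected cannot be told apart from genotype here. The part of these cell types and of that region in the falls was not tested.

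The positions of 10 members overlap a protein-coding gene in GENCODE M21, and the use of strand in counting is not given in the sources used here. Among the members that fell, Pdia3 overlaps Catsper2, at 3.83 to 4.52 CPM, and Pdia6 overlaps Atp6v1c2, at 1.51 to 1.80 CPM. Calr and Xbp1 overlap no other gene there. Of the 10 members, 5 overlap a coding gene at higher CPM than the member in every library, and the levels of these 5 are therefore uncertain. In WT the overlapping genes were at 48.4 CPM for Ddit3 (Mars), 34.6 CPM for Atf5 (Nup62), 123 CPM for Slc7a5 (Gm20388), 124 CPM for Manf (Rbm15b) and 23.3 CPM for Syvn1 (Mrpl49). Rbm15b lies on the strand of Manf, and the others lie on the strand opposite the member. Outside the 10, Psph overlaps Cct6a, annotated there as a processed transcript on the opposite strand. Cct6a was at 227 CPM in WT against 241 and 248 CPM in FGR, above Psph in every library, so the level of Psph is uncertain too.

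**Figure D4:**
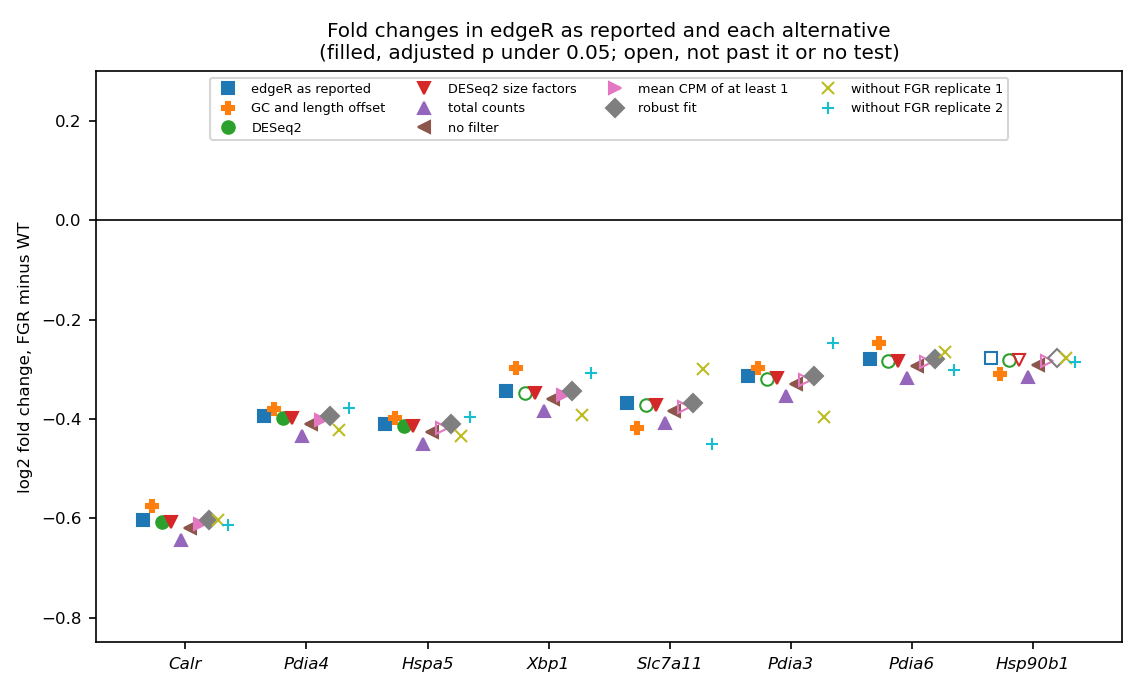
Log2 fold change of FGR against WT for the 6 members that fell and for Hspa5 and Hsp90b1, in the edgeR fit reported here and in each alternative; filled symbols are called at an adjusted p under 0.05, and crosses and plus signs are comparisons of 1 library with 1 and have no test. All values lie below 0, from -0.64 for Calr with total counts to -0.25 for Pdia6 with the GC and length offset.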

How the data were processed

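The authors deposited, for each library, a table of raw read counts per gene with gene length and an RPKM value. Deposited RPKM equalled count divided by length and total to within 0.0005% and was used here only to order levels between genes. Per the submitters' processing notes HISAT2 was among the tools, while its version, the counting tool and the build of the genome are not stated there. The deposited counts went into edgeR 4.0.16 under R 4.3.3 (filterByExpr with a minimum count of 10, TMM scaling, two-sided quasi-likelihood F test, Benjamini-Hochberg adjustment over 25561 genes). Each standard error is the absolute log2 fold change over the root of F. Alternatives were DESeq2 1.42.0, other scalings and filters, a robust fit, each FGR library left out and, added after seeing the data, a GC and length offset (GENCODE M21 transcripts, 49326 genes). Fits were tested on simulated data. All 39 members are named. Of the other pathway genes, called ones at a mean of at least 1 CPM (at most 4 in each direction per list) and Hspa5, Hsp90b1 and Dnajb9 are named; markers named were chosen after their values were seen. Members and lists were chosen with earlier results of these data known. None of the members was on more than 1 row.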

Additional observations from a re-analysis of the deposited data

How the results depend on the processing

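Calr and Pdia4 were called in all 7 alternatives with a test, Xbp1 in 6, and Pdia3, Pdia6 and Slc7a11 in 5. In DESeq2, 325 genes were called over all, with 2 members (2 ER folding and degradation members, 0 ATF4 targets, 0 sensors, eIF2 genes and factors) and 1 other pathway gene. With genes limited to a mean of at least 1 CPM, 301 genes were called over all, with 3 members (2 ER members and 0 ATF4 targets) and 0 other pathway genes. With no filter, 2057 genes were called over all, with 8 other pathway genes. The median over the 83 other pathway genes tested in the main fit, called or not, was then -0.0095. With total counts the medians were -0.18 for ER members, -0.023 for ATF4 targets and -0.034 for other pathway genes, and with the GC and length offset 0.068 for ATF4 targets and 0.017 for other pathway genes. Leaving out FGR replicate 1 or 2, medians ranged from -0.17 to -0.13 for ER members, from 0.029 to 0.072 for ATF4 targets and from -0.015 to -0.011 for other pathway genes. Signs of uncalled members turned for Eif2ak1 (-0.032 with total counts, -0.0075 with no filter), Asns (-0.023 with total counts), Ppp1r15b (0.024), Atf5 (0.035) and Shmt2 (0.068), the last 3 with the GC and length offset. They also turned without FGR replicate 1 for Atf3 (0.30), Shmt2 (0.19), Psat1 (0.011), Asns (-0.0064) and Edem1 (-0.062), and without FGR replicate 2 for Eif2ak1 (-0.025) and Syvn1 (-0.037). The causes of these shifts were not tested. No fit could be made without WT, which has 1 library. Depth limits Atf3, Trib3 and Sdf2l1 most.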

Other observations

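Eif2s3x, the X-linked gene of the third eIF2 subunit, had 266 CPM in WT against 323 and 217 CPM in FGR replicates 1 and 2, the widest gap between the FGR libraries on the eIF2 list. It is the X-linked counterpart of Eif2s3y.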
